A study of Mus musculus with 24 samples.

Results

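A group of 8 genes that receive, end or relay the catecholamine signal of fat cells was followed in differentiating brite adipocytes after knockdown of the long noncoding RNA Ctcflos. They were the 8 members of a list of symbols (Adrb3, Adrb1, Adra2a, Slc22a3, Maoa, Maob, Pde3b and Prkar2b) out of 52089 gene symbols in the deposited table, and each was read from 1 transcript entry, a curated messenger RNA entry where there was one and otherwise the entry with the highest mean level over all 24 libraries. All 8 had a curated entry. The list was put together with earlier results of these data in view, so how many of its genes changed is a description of the list and no evidence about the pathway. The entries were selected on their mean RPKM, and the genes were chosen by hand with the KD and NC levels of these libraries in view. The mean RPKM was 11.8 for Adrb3, 0.915 for Adrb1, 0.0637 for Adra2a, 0.923 for Slc22a3, 46.2 for Maoa, 6.25 for Maob, 14.3 for Pde3b and 23.7 for Prkar2b. RPKM are reads per kilobase of transcript, scaled to the mapped reads of the library. As the libraries hold 3′ ends, RPKM of long transcripts are low for their number of molecules.

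The cells were preadipocytes from the inguinal fat of 129SvEv mice, a pool of stromal and vascular cells that was induced for 2 days and then differentiated with rosiglitazone, which favours brite cells, white adipocytes that acquire thermogenic genes of brown fat. On day 1 of differentiation all cultures received a gapmer at 50 nM by reverse transfection. Gapmers are antisense oligonucleotides with locked nucleic acid ends that lead to cleavage of the RNA they bind. The gapmer was directed at Ctcflos in the knockdown (KD) groups and had no target in the nontargeting control (NC) groups. The labels do not name a particular gapmer. RNA was taken 24 h or 72 h later, so that each time had a KD and an NC group, with 6 libraries in each of the 4 groups. By the study's methods, the induction medium also held insulin, T3, indomethacin, dexamethasone and IBMX, an inhibitor of phosphodiesterases, and insulin and T3 were kept with rosiglitazone during differentiation. All 4 groups shared these agents.

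Noradrenaline released by sympathetic nerves reaches the β-adrenergic receptors of adipocytes, of which Adrb3 is the typical receptor of mouse fat cells. These receptors activate adenylyl cyclase through the stimulatory G protein, whereas Adra2a couples to inhibitory G proteins. The cyclic AMP that is formed releases the catalytic subunits of protein kinase A from regulatory subunits such as Prkar2b and drives lipolysis and Ucp1 transcription. Pde3b, which insulin activates, degrades cyclic AMP. Extracellular catecholamines are cleared by transporters, among them Slc22a3, and are deaminated at the outer mitochondrial membrane by the monoamine oxidases Maoa and Maob.

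Depth was 1391832 to 5926375 mapped reads per library, recovered from the steps of the RPKM values. The shallowest library was KD 24 h replicate 6. NC 72 h replicate 6 had mostly even read numbers (19.8% odd, against 56.1% to 58.6% elsewhere). NC 72 h replicates 2 and 3 differed by less than the sampling noise, and their mean was counted as 1 sample. NC 72 h thus had n = 5 and the series 23 samples. Apart from the groups, the libraries formed 2 clusters, the larger with 16 libraries and the smaller with 8, namely 2 of every group. What set the clusters apart is not in the labels. As a check of the knockdown, the longest curated Ctcflos entry (3476 bases) summed to 60 reads in NC 24 h, 12 in KD 24 h, 101 in NC 72 h and 17 in KD 72 h. A shorter isoform entry (1237 bases) summed to 12, 8, 41 and 3. These sums take in every library, so those of NC 72 h count replicates 2 and 3 separately and include replicate 6. The paper names the shorter isoform transcript 1, the target of its gapmer ASO1. At 24 h its entry ran from 0.159 to 0.792 RPKM in NC and from 0 to 0.961 in KD, so that the groups overlapped. Over all entries, 11781 of 52005 were called at 24 h and 12158 of 54446 at 72 h, that is, had an adjusted p-value under 0.05. At 72 h, 5613 of the calls were higher and 6545 lower after scaling between libraries. On the deposited scale they numbered 13166 and 3102, where the median log2 fold change was 0.25 in place of 0.01, and differences below are those after scaling.

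Maoa had the largest change of the 8 genes. It lies on chromosome X from 16619698 to 16687818 on the plus strand (GRCm38) and spans 68.1 kb. Its level in NC 24 h ran from 21.8 to 27.9 scaled RPKM around a median of 24.5, and in KD 24 h from 45.2 to 90.8 around 67.4. In NC 72 h the 5 samples read 10.5, 12.7, 15.1, 16.2 and 19.5, and in KD 72 h the level ran from 64.4 to 79.0 around 75.0. Every KD sample lay above every NC sample of its time. Mean levels were 24.6 ± 2.07 (SD, n = 6) in NC 24 h, 66.4 ± 15.4 (n = 6) in KD 24 h, 14.8 ± 3.44 (n = 5) in NC 72 h and 73.1 ± 6.15 (n = 6) in KD 72 h. The log2 fold change was 1.41 ± 0.15 (SE) at 24 h (adjusted p = 5.9e-05, limma) and 2.30 ± 0.14 at 72 h (adjusted p = 5.7e-07), a 2.66-fold and a 4.92-fold increase. Between the control groups Maoa fell by 0.74 ± 0.15 on the log2 scale from 24 h to 72 h (adjusted p = 0.0054), whereas the KD means were 66.4 and 73.1. The difference between the knockdown effects, 0.90 ± 0.21 on the log2 scale, missed the threshold (adjusted p = 0.077) and passed it in 5 of 20 alternative settings. The 4 other Maoa entries, which share most of its reads, gave log2 fold changes of 1.40 at 24 h and 2.30 to 2.31 at 72 h.

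A promoter was found for 5 of the 8 genes in the RefSeq sequences of build GRCm38.p6, that is, 250 bases before to 50 after a transcription start. Those of Maoa and Adrb1 are printed from 5′ to 3′ on the strand of the gene. After scaling, the KD and NC samples of these 2 members did not overlap at 72 h. Capitals mark the GC box GGGCGG and the core TGACG of the cAMP response element on either strand. The Maoa promoter is chrX:16619448-16619747 (plus strand) and that of Adrb1 chr19:56721867-56722166 (plus strand).
Maoa: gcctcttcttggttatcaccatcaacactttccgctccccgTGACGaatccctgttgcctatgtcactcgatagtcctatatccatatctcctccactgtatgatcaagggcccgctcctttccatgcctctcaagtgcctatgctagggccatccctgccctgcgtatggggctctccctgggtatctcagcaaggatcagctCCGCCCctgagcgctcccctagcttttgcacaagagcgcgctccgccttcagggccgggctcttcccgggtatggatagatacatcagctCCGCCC
Adrb1: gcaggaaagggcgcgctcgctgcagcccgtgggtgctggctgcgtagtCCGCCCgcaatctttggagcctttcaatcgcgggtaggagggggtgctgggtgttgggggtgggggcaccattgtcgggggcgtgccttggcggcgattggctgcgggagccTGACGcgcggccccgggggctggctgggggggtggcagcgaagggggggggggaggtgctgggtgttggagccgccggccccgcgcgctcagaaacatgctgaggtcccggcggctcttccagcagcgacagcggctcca

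The Maoa promoter was 57.7% G and C and the Adrb1 promoter 72.3%, where the median of all 32851 promoters was 52.7%. Maoa held 2 GC boxes and 1 TGACG core, and Adrb1 held 1 of each. Of all promoters of this length, 35.7% held a GC box and 20.8% the TGACG core. Adra2a held 1 of each as well, Slc22a3 held 1 core, and 1 of the 2 Prkar2b promoters held 4 GC boxes. The full element TGACGTCA (1.79% of all promoters), which contains the core, was in none of the 6 promoters of these genes. Neither were the direct repeat of PPAR sites (0.0396%), the nuclear factor I palindrome (0.0365%), the EBF palindrome (0.904%) and the glucocorticoid response element (0.475%). The TATA box TATAAA (13.6%) was in that of Adra2a. A match describes letters and shows no binding.

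**Figure D1:**
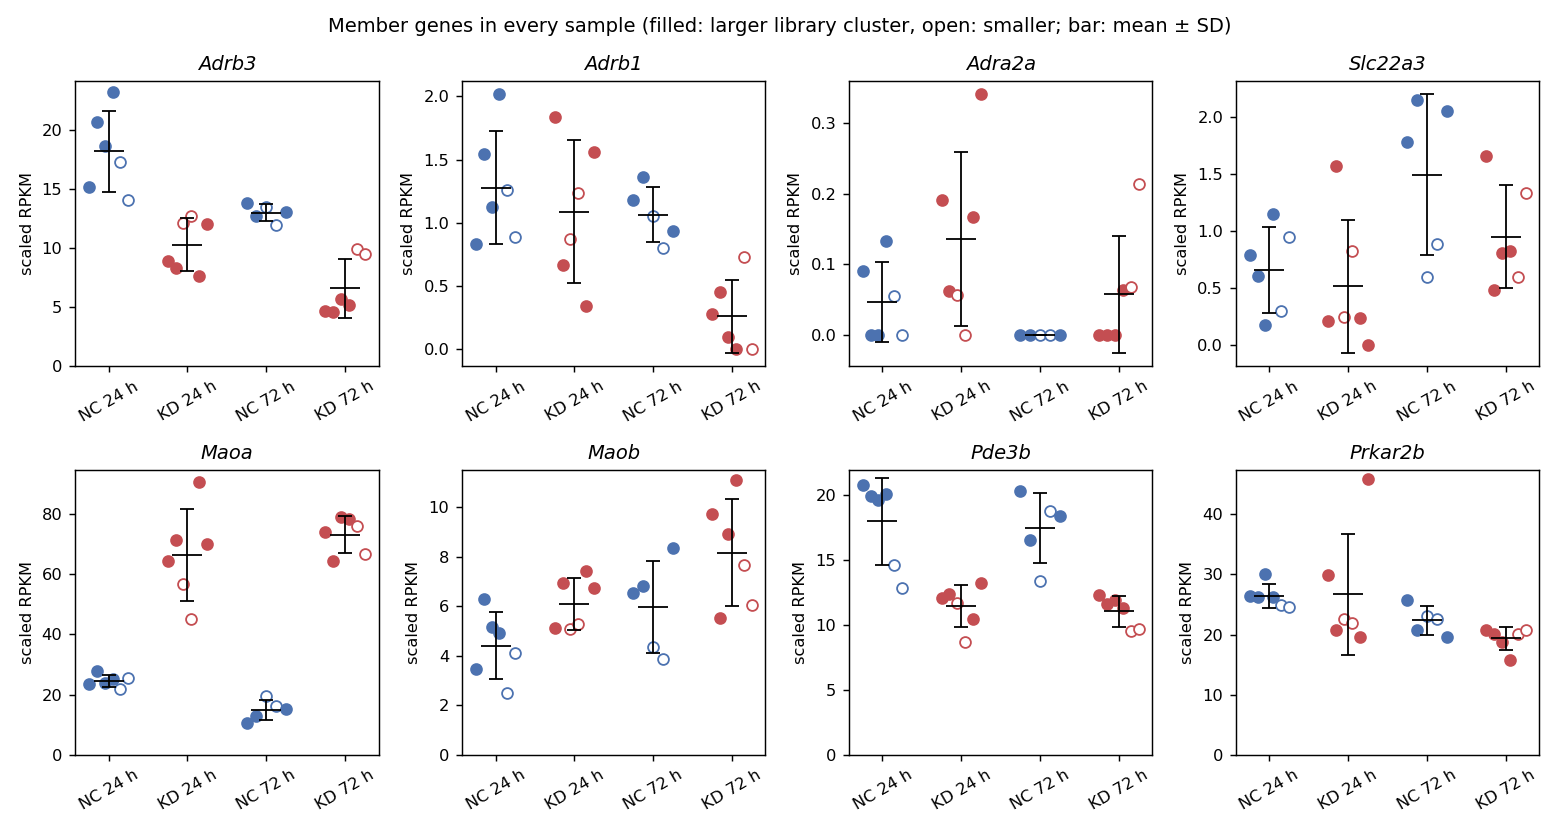
Scaled RPKM (vertical axes, 1 scale per gene) of the 8 genes in each of the 23 samples by group, with NC in blue and KD in red, filled points for the larger and open points for the smaller library cluster, and bars for mean ± SD. Maoa lay at 45.2 or more in every KD sample and at 27.9 or less in every NC sample.

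Adrb3, the β3-adrenergic receptor (chromosome 8, 27225776 to 27250616, minus strand), went the other way. In NC 24 h it ran from 14.1 to 23.2 scaled RPKM around a median of 18.0, and in KD 24 h from 7.62 to 12.7 around 10.5. In NC 72 h the samples read 11.9, 12.7, 13.1, 13.5 and 13.8, and KD 72 h ran from 4.55 to 9.97 around 5.42. After scaling, no KD sample reached the lowest NC sample of its time. On the deposited scale the groups overlapped at both times. There KD 24 h replicate 6 read 13.4 and NC 24 h replicate 6 read 13.2, and KD 72 h replicate 6 read 11.6 and NC 72 h replicate 5 read 11.3. On the log2 scale Adrb3 fell by 0.82 ± 0.18 at 24 h (adjusted p = 0.0055) and by 1.07 ± 0.21 at 72 h (adjusted p = 0.0027), to 56.8% and 47.6% of control on this scale. The fall from NC 24 h to NC 72 h, 0.44 ± 0.13, missed the threshold (adjusted p = 0.052) and passed it in 7 of 19 alternative settings. Another Adrb3 entry of the same length gave the same values. A shorter one (1864 bases, median 20 reads) also pointed down in KD but was not called. Its log2 fold changes were -1.81 ± 0.69 at 24 h (adjusted p = 0.072) and -1.11 ± 0.42 at 72 h (adjusted p = 0.075).

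The Adrb3 difference was also computed within each library cluster. Within the larger cluster Adrb3 fell by 1.07 ± 0.20 at 24 h (adjusted p = 0.0047) and by 1.40 ± 0.17 at 72 h (adjusted p = 0.00020). In the smaller cluster, with 2 libraries a group, the log2 fold changes were -0.34 ± 0.19 (adjusted p = 0.34) and -0.41 ± 0.21 (adjusted p = 0.26). At 72 h the 2 highest KD samples, 9.49 and 9.97, were both of the smaller cluster. Whether the clusters differ was not tested.

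**Figure D2:**
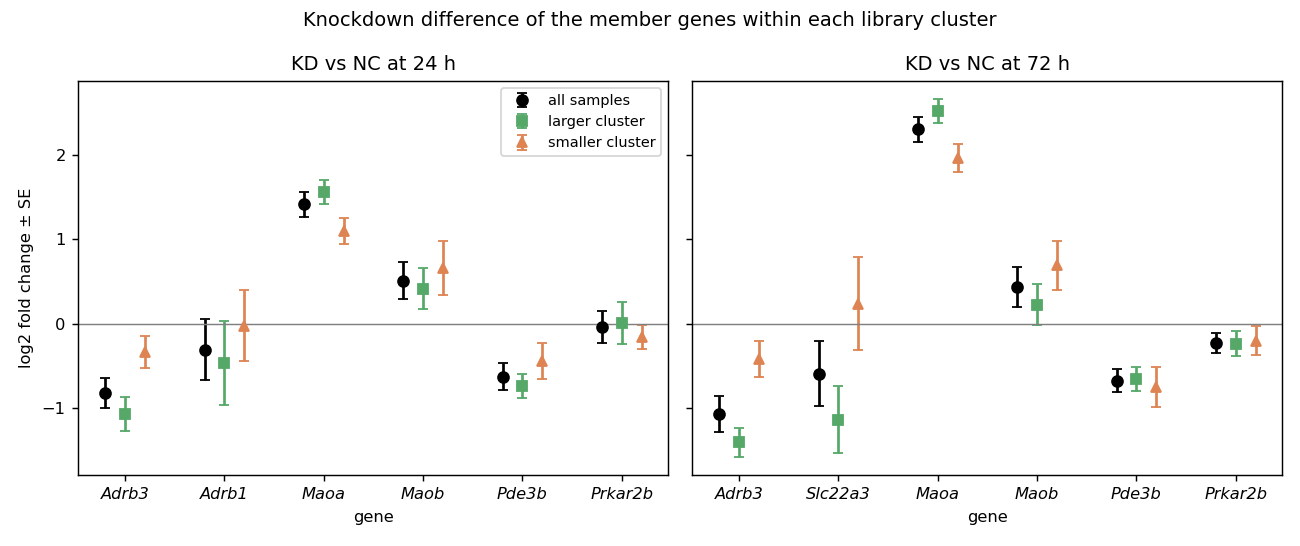
Log2 fold change of KD against NC (vertical axis, ± SE) for the genes in each fit at 24 h and 72 h, over all samples and within each library cluster. Adrb3 sat lowest in the larger cluster, at -1.07 and -1.40, whereas Maoa was above 1 in both clusters at both times.

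Some markers of fat cells fell as Adrb3 did, and others did not. The summed level of the 5 adipocyte markers was 49217 to 52001 scaled RPKM in NC 24 h and 36109 to 48445 in KD 24 h, then 34985 to 46828 in NC 72 h and 25640 to 34960 in KD 72 h. Of the 5, Adipoq (adiponectin) and Lipe (hormone-sensitive lipase) fell at 24 h, and Adipoq and Fabp4 (the fatty acid carrier of adipocytes) at 72 h, where the log2 fold changes were -0.96 (adjusted p = 0.00066) and -0.58 (adjusted p = 0.0058). Plin1 and Cidec, which coat lipid droplets, passed the test at neither time. At 72 h their log2 fold changes were -0.45 (adjusted p = 0.11) and 0.11 (adjusted p = 0.56). Fabp4 made up most of the adipocyte sum, with a mean of 45276.4 of 50071.5 in NC 24 h, and was not called at 24 h (adjusted p = 0.23). The sum therefore mainly follows Fabp4. Of the 5 brite markers, Ucp1, Cidea, Elovl3 and Cox7a1 fell at both times, and Dio2 was at 0 in 13 of 24 libraries. Their summed level was 450 to 881 in NC 24 h, 321 to 472 in KD 24 h, 1235 to 2108 in NC 72 h and 382 to 735 in KD 72 h. Fewer adipocytes and less RNA per adipocyte cannot be told apart in such bulk samples, and the part of either in the fall of Adrb3 was not tested.

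Adrb1, the β1-adrenergic receptor (chromosome 19, 56722199 to 56733113, plus strand), was close to the limit of these libraries, with 0 to 20 reads per library. In NC 24 h it ran from 0.833 to 2.02 scaled RPKM around 1.19 and in KD 24 h from 0.338 to 1.84 around 1.06, with overlapping groups. The log2 fold change at 24 h was -0.31 ± 0.36 (adjusted p = 0.56). In NC 72 h the samples read 0.799, 0.938, 1.05, 1.18 and 1.36, and KD 72 h ran from 0 to 0.732 around 0.187. After scaling, all 6 KD 72 h samples lay below all NC 72 h samples. On the deposited scale the groups overlapped, with KD 72 h replicate 5 at 0.842 RPKM and NC 72 h replicate 5 at 0.758. The libraries held 8 to 13 reads in NC 72 h and 0 to 7 in KD 72 h, with 63 and 15 reads in all. The 63 count replicates 2 and 3 (12 and 11 reads) separately, although they entered the levels as 1 sample. They also hold the 13 reads of replicate 6, the library with mostly even read numbers.

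At 72 h Adrb1 did not reach the minimum for the fit. Two-sided exact permutation tests were therefore run on the 5 member comparisons outside a fit, and none of their p-values is adjusted. For Adrb1 at 72 h the means of 0.260 ± 0.291 (SD, n = 6) and 1.07 ± 0.216 (SD, n = 5) differed at the smallest exact permutation p this design allows, 0.0043. That p-value rests on the scaled levels, and the test was not run on the deposited scale, where the groups overlapped. In the fit over all entries without the filter on low values, the log2 fold change was -2.16 ± 0.61 (adjusted p = 0.042). The change of the knockdown effect between times was -1.82 ± 0.66 on the log2 scale (adjusted p = 0.26), so that a difference between 24 h and 72 h was not shown. A short second entry of 435 bases held nearly the same reads, 8 to 11 per library in NC 72 h and 0 to 7 in KD 72 h.

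Adra2a, the α2A receptor of the inhibitory branch (chromosome 19, 54044151 to 54048982, plus strand), was hardly detected. It had 20 reads in all, at most 4 in a library, and was at 0 in 13 of 24 libraries, among them all 6 of NC 72 h. In this entry 3 reads are worth 0.133 to 0.567 RPKM per library, and no group mean passed the upper of these limits. Group means were 0.0464 in NC 24 h, 0.136 in KD 24 h, 0 in NC 72 h and 0.0575 in KD 72 h, and the two-sided exact permutation p was 0.12 at 24 h (n = 6 and 6) and 0.24 at 72 h (n = 6 and 5). A difference was not detectable at this depth. These limits cover counting error only.

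None of the 6 other adrenergic receptor genes entered a fit. Mean levels in NC 24 h, KD 24 h, NC 72 h and KD 72 h were 0.433, 0.213, 0.620 and 0.228 scaled RPKM for the α1A receptor Adra1a. They were 0.345, 0.243, 0.385 and 0.316 for Adra1d and 0.0812, 0.0847, 0.0654 and 0.0439 for Adra1b. Adra2b had means of 0.0107, 0.0101, 0.0731 and 0.134. Adra2c was at 0 in every library. Of the receptor genes named here, Adrb3 thus had the highest RPKM in all 4 groups, followed by Adrb1 in all groups but KD 72 h, where Adrb1 (0.260), Adra1d (0.316) and Adra1a (0.228) did not differ beyond what 3 reads are worth.

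Slc22a3, an organic cation transporter that takes up catecholamines outside neurons (chromosome 17, 12418960 to 12507704, minus strand), held 0 to 40 reads per library. It ran from 0.178 to 1.15 scaled RPKM in NC 24 h and from 0 to 1.57 in KD 24 h. In NC 72 h the samples read 0.599, 0.884, 1.78, 2.05 and 2.15, and KD 72 h ran from 0.485 to 1.66 around 0.818. The groups overlapped at both times. For the libraries taken at 72 h, the larger cluster gave a log2 fold change of -1.13 ± 0.39 (adjusted p = 0.057) and the smaller one of 0.24 ± 0.55 (adjusted p = 0.84), on opposite sides of 0. At 24 h it did not enter the fit (two-sided exact permutation p = 0.62, n = 6 and 6), and at 72 h the log2 fold change was -0.59 ± 0.38 (adjusted p = 0.29). The change from NC 24 h to NC 72 h was 1.12 ± 0.43 (adjusted p = 0.13), and it rose past the threshold without replicate 4 of either group (1.55 ± 0.43, adjusted p = 0.048).

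Maob, the neighbour of Maoa (chromosome X, 16709282 to 16817366, minus strand), points towards it, and 21.5 kb separate the ends of the 2 gene models. Its level was lower than that of Maoa in every group. It ran from 2.51 to 6.29 scaled RPKM around 4.51 in NC 24 h and from 5.07 to 7.43 around 6.00 in KD 24 h. The NC 72 h samples read 3.85, 4.35, 6.55, 6.82 and 8.35, and KD 72 h ran from 5.51 to 11.1 around 8.29. In Maob, 3 of 6 KD samples exceeded all NC samples at each time and the other 3 lay within them. The log2 fold changes were 0.51 ± 0.22 at 24 h (adjusted p = 0.105) and 0.43 ± 0.24 at 72 h (adjusted p = 0.21), with 95% intervals of 0.04 to 0.98 and -0.07 to 0.94. On the deposited scale the value at 72 h was 0.68 ± 0.23 (adjusted p = 0.034).

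Pde3b, the phosphodiesterase that insulin activates in fat cells, is on chromosome 7 from 114415281 to 114539251 on the plus strand. It ran from 12.8 to 20.7 scaled RPKM around 19.8 in NC 24 h and from 8.68 to 13.2 around 11.9 in KD 24 h. The NC 72 h samples read 13.3, 16.5, 18.4, 18.8 and 20.3, and KD 72 h ran from 9.51 to 12.3 around 11.5. After scaling, the groups were apart at 72 h, and at 24 h 1 KD sample (replicate 6, the shallowest library) passed the lowest control. On the deposited scale they overlapped at 72 h as well, with KD replicate 1 at 13.6 and NC replicate 4 at 13.1. On the log2 scale Pde3b fell by 0.63 ± 0.16 at 24 h (adjusted p = 0.013) and by 0.67 ± 0.14 at 72 h (adjusted p = 0.0033), to 64.7% and 62.7% of control. Between the control groups the log2 fold change was -0.01 ± 0.15 (adjusted p = 0.97). The 3 other entries that could be tested also fell at both times. The call at 24 h was lost without replicate 2 of both groups, where the log2 fold change was nearly the same (-0.62 ± 0.19, adjusted p = 0.0502). It was lost in the smaller cluster at both times, with log2 fold changes of -0.45 (adjusted p = 0.27) and -0.75 (adjusted p = 0.078).

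Prkar2b, the RIIβ regulatory subunit of protein kinase A that predominates in fat (chromosome 12, 31958476 to 32061296, minus strand), gave no call. It ran from 24.6 to 30.1 scaled RPKM around 26.2 in NC 24 h and from 19.5 to 45.9 around 22.2 in KD 24 h. The NC 72 h samples read 19.5, 20.7, 22.6, 23.1 and 25.7, and KD 72 h ran from 15.8 to 20.8 around 20.1. For Prkar2b, 4 of 6 KD 24 h samples lay below all controls, and the shallowest library, at 45.9, lay above them. The log2 fold change was -0.04 ± 0.19 at 24 h (95% interval -0.44 to 0.36, adjusted p = 0.91) and -0.23 ± 0.12 at 72 h (95% interval -0.48 to 0.02, adjusted p = 0.17). Without the shallowest library the value at 24 h was -0.20 ± 0.12 (adjusted p = 0.24), and on the deposited scale that at 72 h was 0.02 (adjusted p = 0.92).

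**Figure D3:**
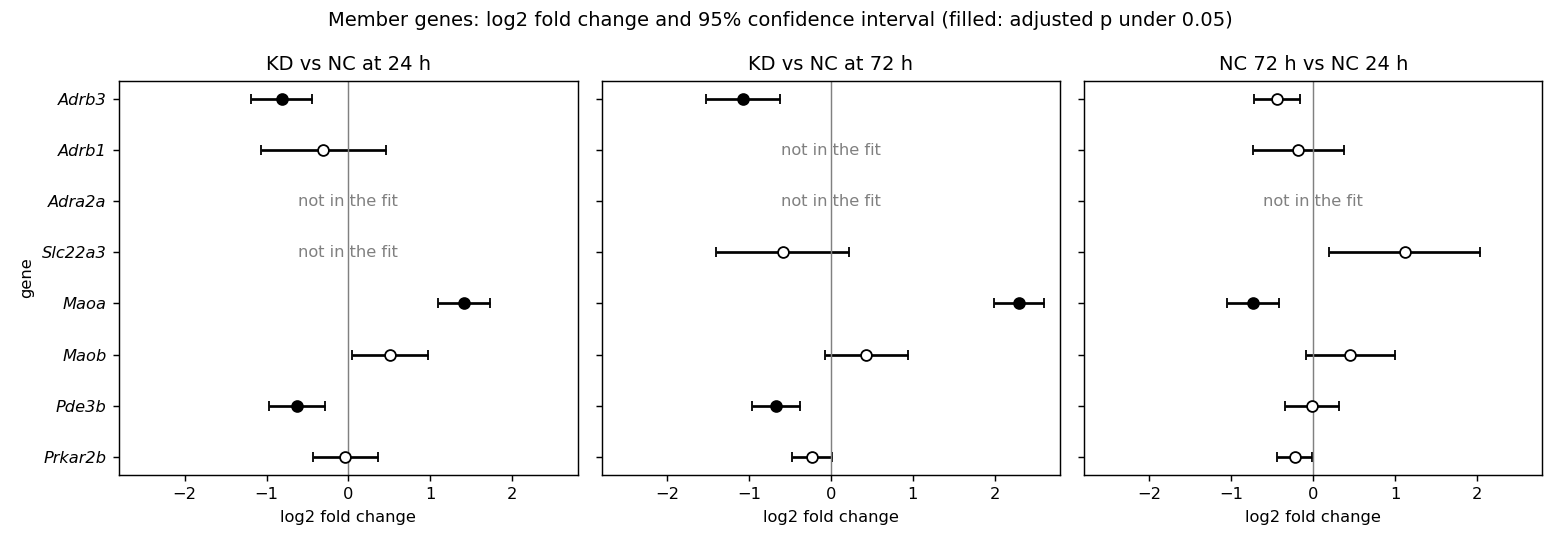
Log2 fold change (horizontal axis, with 95% confidence interval) of the 8 genes for KD against NC at 24 h and 72 h and for NC 72 h against NC 24 h, filled where the adjusted p-value was under 0.05. Adrb3 and Pde3b lay below 0 and Maoa above 0 at both times, and genes with too few reads were not in the fit.

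In all, 6 of the 8 genes entered the fit at each time, and a gene with few reads can enter only through the group in which it is high. At 24 h, 1 of the 6 was called higher and 2 lower, where 11% and 11.8% of the 11111 gene symbols tested were called higher and lower. At 72 h it was again 1 and 2 of 6, against 10.3% and 12.9% of 11576 symbols. The median log2 fold change of the 6 was -0.17 at 24 h and -0.41 at 72 h, and that of all symbols was -0.01 at both times. From NC 24 h to NC 72 h 0 of 7 members were called higher and 1 lower, against 5.01% and 4.2% of 11260 symbols. For the difference between the knockdown effects 0 of 7 were called, against 0.283% of 12711 symbols. An unadjusted p-value under 0.05 was found for 2 of the 7 (Maoa and Adrb1), against 6976 of all 59412 entries in this fit. After scaling, KD and NC samples did not overlap for 2 of the 6 at 24 h (Adrb3 and Maoa), against 11.8% of symbols tested. At 72 h this held for 3 of the 6 (Adrb3, Maoa and Pde3b), against 14.6%. Adrb1, which was outside the fit at 72 h, did not overlap there either. On the deposited scale Adrb3, Pde3b and Adrb1 overlapped and Maoa did not. The shares of all symbols were not counted on that scale.

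**Figure D4:**
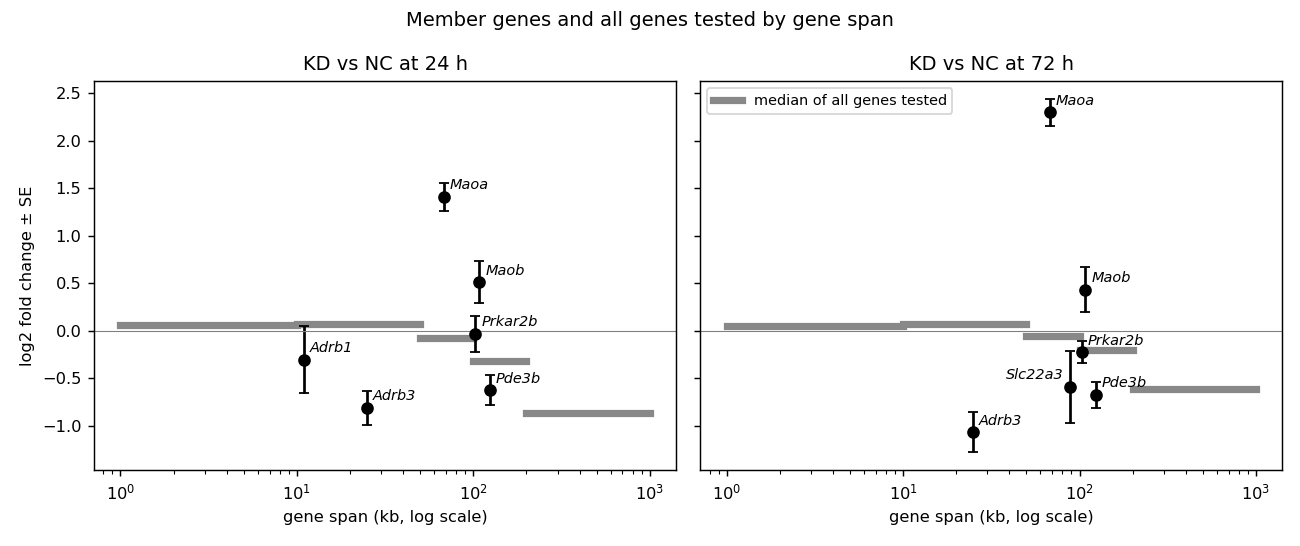
Log2 fold change (vertical axis, ± SE) of the genes in each fit against the span of the gene model (horizontal axis, log scale, kb), with grey bars for the median of all gene symbols tested in each range of span. The median fell with span, to -0.86 at 24 h and -0.61 at 72 h over 200 kb, whereas Maoa lay above and Adrb3 below the median of its range.

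Differences after knockdown varied with the span of the gene. Of 749 genes with 100 kb to 200 kb, the range of Pde3b (124.0 kb), Maob (108.1 kb) and Prkar2b (102.8 kb), 26.7% were lower and 3.2% higher at 24 h. The median log2 fold change in this range was -0.32, and it was -0.20 at 72 h. Genes of 10 kb to 50 kb, the range of Adrb3 (24.8 kb) and Adrb1 (10.9 kb), had a median of 0.07 at both times. Those of 50 kb to 100 kb, the range of Maoa and Slc22a3 (88.7 kb), had medians of -0.08 and -0.05. The part of span in the fall of Pde3b was not tested.

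The other genes of the pathway were taken from 11 lists by role, with 108 genes beside the members, of which 60 entered the fit at 24 h and 64 at 72 h. Adcy7, Prkar1b, Sult1a1 and Nr4a1, called higher at 72 h below, had too few reads for the fit between the control groups. They entered at 72 h through KD, where they are high, whereas Rnls, which was low in KD, stayed out. At 24 h 7 were called higher and 9 lower, at 72 h 16 and 11, and the median log2 fold change was -0.15 and -0.02. Of all symbols tested, 11% were called higher and 11.8% lower at 24 h, and 10.3% and 12.9% at 72 h. The counts per list below are to be read beside these shares, and no list was tested as a set. The catecholamine synthesis genes Th and Dbh were at 0 in every library, Pnmt had 1 read in all and Ddc 34. Of the sympathetic neuron markers, Tubb3 alone entered a fit, at 72 h, where it rose with a log2 fold change of 1.23 (adjusted p = 0.035). It had a median of 5.5 reads per library, with means of 1.00 scaled RPKM in NC 72 h and 2.16 in KD 72 h. With so few reads a gene can enter only through the group in which it is high. Slc6a2, the neuronal noradrenaline transporter, was at 0 in 23 of 24 libraries. Of the 7 other uptake and storage genes, only the vesicular transporter Slc18a2 entered the fits, with log2 fold changes of -0.22 (adjusted p = 0.83) and -0.37 (adjusted p = 0.41).

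Of the 9 other breakdown genes, 8 entered the fits of KD against NC, and 1 was called higher at 24 h and 3 at 72 h, with none lower. The gene left out, Rnls, had too few reads for these fits and was not tested. Its means were lower in KD than in NC at 24 h (0.564 against 2.30 scaled RPKM) and at 72 h (0.694 against 2.57). Akr1b3, an aldose reductase that reduces the aldehydes made by monoamine oxidases among other substrates, rose with Maoa. It had means of 11.5 ± 1.56 (SD, n = 6) in NC 24 h, 24.2 ± 9.55 (n = 6) in KD 24 h, 7.06 ± 1.63 (n = 5) in NC 72 h and 63.0 ± 13.8 (n = 6) in KD 72 h. The log2 fold change was 0.98 ± 0.24 at 24 h (adjusted p = 0.011) and 3.11 ± 0.18 at 72 h (adjusted p = 4.3e-07). Akr1b3 was also the pathway gene whose knockdown effect differed between times (2.14 ± 0.32 on the log2 scale, adjusted p = 0.0077). The sulfotransferase Sult1a1 rose at 72 h (log2 fold change 2.81 ± 0.69, adjusted p = 0.010), as did Akr1a1 (0.38, adjusted p = 0.0070). From NC 24 h to NC 72 h Comtd1 (-1.18 ± 0.14, adjusted p = 0.00017) and Akr1b3 (-0.69 ± 0.16, adjusted p = 0.013) fell.

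**Figure D5:**
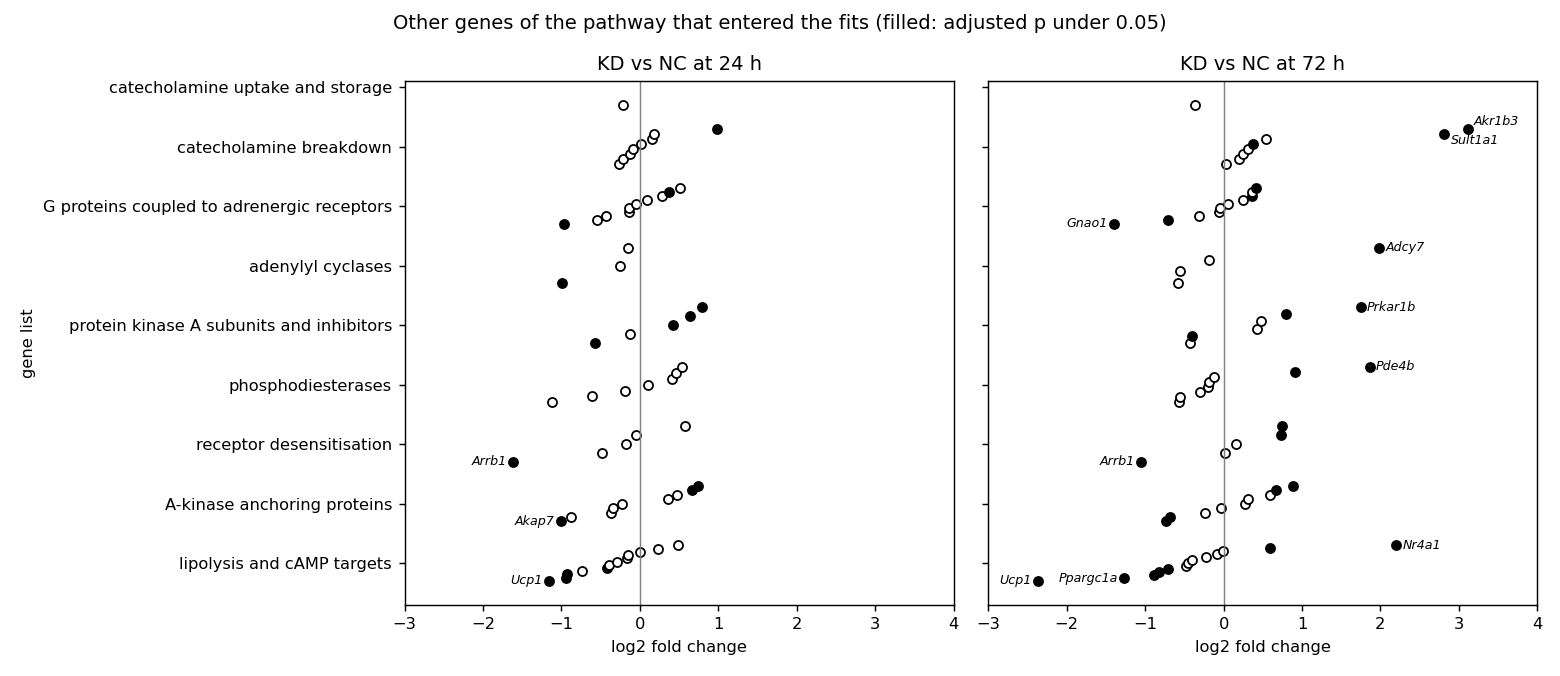
Log2 fold change (horizontal axis) of the pathway genes other than the 8, by list (vertical axis), for KD against NC at 24 h and 72 h, filled where the adjusted p-value was under 0.05 and named where the called change was past 1 in size. Akr1b3 and Sult1a1 stood at 3.11 and 2.81 at 72 h and Ucp1 at -2.37.

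Downstream of the receptors, 10 of 11 G protein genes entered the fits, with 1 higher and 1 lower at 24 h and 2 and 2 at 72 h. Gnas, the stimulatory α subunit, rose at both times (log2 fold change 0.37 ± 0.10, adjusted p = 0.020, and 0.42 ± 0.08, adjusted p = 0.0024). Gnaq fell at both (-0.97 ± 0.19, adjusted p = 0.0037, and -0.70 ± 0.13, adjusted p = 0.0013). At 72 h Gnai2 rose (0.37 ± 0.10, adjusted p = 0.019) and Gnao1 fell (-1.40 ± 0.28, adjusted p = 0.0028). Of 10 adenylyl cyclases 3 entered the fit at 24 h, where Adcy5 fell (-0.99 ± 0.27, adjusted p = 0.016), and 4 at 72 h, where Adcy7 rose (1.98 ± 0.28, adjusted p = 0.00028). Adcy7 had a median of 6 reads per library, with means of 0.219 scaled RPKM in NC 72 h and 1.12 in KD 72 h.

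Of the 8 other subunits and inhibitors of protein kinase A, 5 entered the fit at 24 h, with 3 higher and 1 lower, and 6 at 72 h, with 2 higher and 1 lower. The RIα subunit Prkar1a rose at both times (0.42, adjusted p = 0.016, and 0.79 ± 0.10, adjusted p = 0.00011). At 24 h Prkar2a (0.79 ± 0.24, adjusted p = 0.029) and the catalytic Prkacb (0.64 ± 0.22, adjusted p = 0.048) rose and the inhibitor Pkig fell (-0.57 ± 0.15, adjusted p = 0.013). At 72 h Prkar1b rose (1.75 ± 0.28, adjusted p = 0.00070) and the catalytic Prkaca fell (-0.40 ± 0.13, adjusted p = 0.040). Whether any of them differed from Prkar2b was not tested.

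Of the 17 other phosphodiesterases, 7 entered the fit at 24 h, with none called, and 8 at 72 h, with 2 higher. These were Pde4b (1.86 ± 0.28, adjusted p = 0.00040), which is selective for cyclic AMP, and Pde1b (0.91 ± 0.25, adjusted p = 0.019). The close relative Pde3a had 9 reads in all. Of 8 desensitisation genes 5 entered the fits. Arrb1, a β-arrestin, fell at both times (-1.61 ± 0.44, adjusted p = 0.017, and -1.05 ± 0.33, adjusted p = 0.033). The receptor kinase Grk2, listed under its older symbol Adrbk1, rose at 72 h (0.75 ± 0.19, adjusted p = 0.011), as did Rgs2 (0.73 ± 0.19, adjusted p = 0.016).

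Of 12 anchoring proteins of protein kinase A, 9 entered the fits, with 2 higher and 1 lower at 24 h and 2 and 2 at 72 h. Akap13 rose (0.66 ± 0.21, adjusted p = 0.038, and 0.88 ± 0.20, adjusted p = 0.0064) and Akap7 fell (-1.01 ± 0.27, adjusted p = 0.017, and -0.74 ± 0.23, adjusted p = 0.036) at both times. Akap11 rose at 24 h (0.74 ± 0.25, adjusted p = 0.042). At 72 h Akap2 rose (0.67 ± 0.16, adjusted p = 0.0098) and the mitochondrial Akap1 fell (-0.68 ± 0.19, adjusted p = 0.020).

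Of 16 lipolysis genes and cAMP targets, 12 entered the fit at 24 h, with none higher and 4 lower, and 13 at 72 h, with 2 higher and 5 lower. Ucp1, the uncoupling protein, fell on the log2 scale by 1.16 ± 0.24 at 24 h (adjusted p = 0.0046) and by 2.37 ± 0.21 at 72 h (adjusted p = 8.2e-06). Its means were 139.9 ± 54.1 (n = 6) in NC 24 h, 59.1 ± 13.4 (n = 6) in KD 24 h, 734 ± 139 (n = 5) in NC 72 h and 150.4 ± 57.6 (n = 6) in KD 72 h. The monoglyceride lipase Mgll fell at both times, at 24 h by 0.95 ± 0.12 (adjusted p = 0.00017). At 72 h the coactivator Ppargc1a fell (-1.27 ± 0.23, adjusted p = 0.0016), and the cAMP-induced genes Nr4a1 (2.20 ± 0.46, adjusted p = 0.0039) and Crem (0.59 ± 0.16, adjusted p = 0.016) rose. From NC 24 h to NC 72 h Ucp1 rose (2.49 ± 0.24, adjusted p = 3.6e-05) and Crem fell (-0.63 ± 0.16, adjusted p = 0.019).

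Markers of other cells that the stromal vascular fraction could hold were read beside the members. Of the stromal markers Pdgfra, Dlk1, Ly6a, Cd34 and Thy1, Cd34 rose at 72 h. Cd34 had few reads (median 10.5 per library), with means of 0.411 scaled RPKM in NC 72 h and 1.83 in KD 72 h. The summed level of these markers ran from 429 to 1024 in NC 24 h and 394 to 784 in KD 24 h. It ran from 377 to 1011 in NC 72 h and 680 to 866 in KD 72 h. Of the mural markers Pdgfrb, Rgs5, Cspg4, Mcam and Acta2, Pdgfrb rose at 72 h, with sums of 378 to 1122, 147 to 655, 255 to 758 and 206 to 280. Of the macrophage markers, Csf1r rose at both times and Lyz2 fell at 72 h. Ptprc, which marks all leukocytes, was at 0 in 16 of 24 libraries, Adgre1 in 9 and Cd68 in 5, and the sums ran from 6.24 to 29.8, 2.84 to 20.6, 9.97 to 31.4 and 5.94 to 13.8. The endothelial sums (Pecam1, Cdh5, Kdr, Tek and Emcn) did not exceed 3.06 and none of these genes entered a fit. The sympathetic neuron sums did not exceed 3.70, with Th and Dbh at 0. Of the Schwann cell markers, Sox10 was at 0 in 21 libraries, S100b fell at both times and Ncam1 at 24 h, and the sums ran from 17.3 to 21.8, 7.27 to 13.7, 47.3 to 71.5 and 21.4 to 80.9. The part of other cells in the member values was not tested.

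Over all 23 samples, the levels of 12711 gene symbols were correlated with each member as a description, since samples of the 4 groups share their group differences. The levels most like Adrb3 were those of Ndufa6, a subunit of respiratory complex I (Pearson r = 0.949), and Ppara, the fatty acid receptor of oxidative tissues (r = 0.930). For Maoa they were Serpinb9 (r = 0.947) and the RNA helicase Ddx21 (r = 0.931). Pde3b was most like Gbe1, the glycogen branching enzyme (r = 0.881). Prkar2b was most like Luzp1 (r = 0.880) and Bckdhb, a subunit of branched-chain ketoacid dehydrogenase (r = 0.873). Maob was most like the glutamine synthetase Glul (r = 0.832) and Tmprss11f (r = 0.804), and Slc22a3 most like Cnrip1 (r = 0.786) and 2010320M18Rik (r = 0.772). The values for Adrb1 (Gm20605, r = 0.823, and Egfr, r = 0.819) and Adra2a (Flcn, r = 0.820, and Brpf3, r = 0.818) rest on very few reads of the member.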

How the data were processed

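The authors prepared libraries by bulk RNA barcoding and sequencing (oligo-dT priming, tagmentation, 3′ ends), aligned reads with the Genomatix suite and deposited RPKM for 168326 transcript entries in 24 libraries. The genome build is not given in the sources used here. Entries of a gene overlap and share reads, and the handling of strand was not stated. DESeq2 was the test of the authors at either time, and limma 3.58.1 (R 4.3.3) was used here, since the deposited values are not counts.

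Whole reads were recovered from the RPKM steps (93.0% to 93.7% of low values whole within 0.02 reads). A fit took in entries that reached what 10 reads are worth at median depth in the number of samples of its smaller group and had 15 reads over all. Libraries were scaled within each comparison by trimmed mean log ratios. Then log2(scaled RPKM + 0.1) was fitted with an intensity trend, and the added 0.1 understates changes of low genes. Levels are on 1 scaling over all samples. Benjamini-Hochberg adjusted p-values, two-sided, cover all entries tested, and those under 0.05 are calls. Counts per gene symbol take 1 entry each. Replicate numbers come from the titles. The study's methods call the replicates biological, but no label ties them to animals, so p-values measure the spread between these samples. The fits were tested on simulated data.

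The members, the lists and the alternatives were chosen with earlier results of these data known. Named were all members, the other adrenergic receptor genes, up to 2 called genes with the largest change per direction in each other list and comparison, the 2 symbols most correlated with each member, the marker genes and the Ctcflos entries. A few genes that this rule names are not reported here. Gene positions are those of GENCODE M21 (GRCm38). No library column was left out.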

Additional observations from a re-analysis of the deposited data

Results flagged for a closer look

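In 31 groups of member values, the highest and the lowest sample were compared with the rest of their group by Dixon's ratio, and 2 samples stood apart. Adra2a read 0.213 scaled RPKM in KD 72 h replicate 6, against 0 to 0.0685 in the 5 other samples, which is 4 reads. Prkar2b read 30.1 in NC 24 h replicate 3, against 24.6 to 26.4 in the other 5. Chance alone marks about 1 group in 20, and no cause was tested for either.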

How the results depend on the processing

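Of the alternative values of the members' log2 fold changes, 475 kept their side of the threshold, 14 passed it and 6 lost it, and no called value changed direction. The cause was not tested for any of the following unless fewer entries or samples were used. At 24 h, 11781 of 52005 entries were called, against 2617 of 11111 with 1 entry per symbol and 3660 of 13106 with RefSeq entries only. These 2 settings test fewer entries, so their counts are lower for that reason. The count was 1562 of 52996 in the smaller cluster and 6231 to 13339 leaving out a replicate (lowest without replicate 2). Of 3 members called, the count was 1 in the smaller cluster and 2 to 3 leaving out a replicate. Of 16 pathway genes, the count was 9 with no filter, 3 in the smaller cluster and 5 to 17 leaving out a replicate. At 72 h, 12158 of 54446 entries became 2811 of 11576, 3552 of 13805 and 5851 of 56097 under the same first 3 settings. Leaving out a replicate gave 7709 to 10573. The smaller cluster gave 1 member in place of 3 and 9 pathway genes in place of 27.

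From NC 24 h to NC 72 h, 4818 of 52835 entries became 1072 of 11260, 1411 of 13288 and 1764 of 53983 under these settings. With the replicate block the count was 2890. The count of members called, 1, was 2 on the deposited scale, with 1 entry per symbol, RefSeq entries, voom, separate libraries or the cluster as a covariate, 0 in the smaller cluster and 1 to 2 leaving out a replicate. The 5 pathway genes became 8 with separate libraries or the covariate and 3 to 6 leaving out a replicate. For the difference between the knockdown effects, 126 of 59412 entries became 774 on the deposited scale and 204 and 246 with pseudocounts of 0.5 and 1. The counts were 49 of 12711 with 1 entry per symbol and 50 of 14496 with RefSeq entries. They were 206 with separate libraries, 29 with the block, 402 with the covariate, 863 in the larger and 1783 in the smaller cluster, and 3 to 173 leaving out a replicate. Members called were 0, and 1 on the deposited scale, with 1 entry per symbol, separate libraries, the covariate or the larger cluster. Pathway genes called were 1, and 4 on the deposited scale and in the smaller cluster, 3 with the covariate or the larger cluster, 2 with a pseudocount of 1, 1 entry per symbol, RefSeq entries, voom or separate libraries, and 0 to 1 leaving out a replicate.

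Samples with the same replicate number did not deviate together (mean correlations of -0.050, 0.0081 and 0.016). The library clusters enter these correlations and fell partly on different replicate numbers in the groups compared. The values therefore cannot tell whether samples were paired. With the replicate block, 8732 entries were called at 24 h and 8140 at 72 h, and the members called numbered 3 and 3. The runs without KD 24 h replicate 6 or NC 72 h replicate 6 were chosen after seeing the data. Genes with few reads, Adra2a before all, are limited by depth.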

Other observations

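Rnls, whose product renalase was described as an amine oxidase, stood out among the pathway genes after its values were seen. Its mean was 2.30 ± 1.03 scaled RPKM (SD, n = 6) in NC 24 h and 0.564 ± 0.426 (n = 6) in KD 24 h, then 2.57 ± 0.703 (n = 5) in NC 72 h and 0.694 ± 0.547 (n = 6) in KD 72 h. It had too few reads to enter the fits of KD against NC, and no test was run on it.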
